A study of Homo sapiens with 2 samples.

Results

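The genes described here encode the enzymes that oxidise, reduce and conjugate foreign compounds, aldehydes and steroids, together with the aryl hydrocarbon receptor AHR, its repressor AHRR and its target TIPARP. Members were taken by symbol: names beginning with CYP, UGT, SULT, ALDH, FMO or CES and a digit, AKR1 or AKR7, and GST followed by a class letter and a digit, without CYP51A1, hyphenated names and pseudogene names. The rule gave 153 of the 26506 genes in the deposited tables. GSTP1 was kept because the P in its name is the class letter pi and not a pseudogene suffix.

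Poly(A) RNA was sequenced from human corneal epithelial cells, here the established line ATCC CRL-11515. The special medium was DMEM/F12 with 1 mM calcium chloride, 10% fetal bovine serum, EGF at 10 ng/mL and an antibiotic and antimycotic mix. The comparison medium was KSFM, a keratinocyte medium without serum, with supplements that the labels do not list. Cells stayed in either medium for 72 hours, and RNA of 3 cultures was pooled into 1 library per medium, so no difference has a replicate check and no p-value is given.

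Detoxification is usually described in phases. Cytochrome P450 enzymes (CYP), flavin monooxygenases (FMO) and carboxylesterases (CES) oxidise or hydrolyse a compound; UDP-glucuronosyltransferases (UGT), sulfotransferases (SULT) and glutathione transferases (GST) then attach a sugar acid, a sulfate or glutathione, and aldehyde dehydrogenases (ALDH) and aldo-keto reductases (AKR) remove reactive carbonyls. AHR is a ligand-activated transcription factor that pairs with ARNT, binds a short DNA element and drives CYP1 genes, AHRR and TIPARP. In the cornea these enzymes are known for handling light- and oxygen-derived aldehydes, and ALDH3A1 and ALDH1A1 are abundant enough in the native epithelium to be called corneal crystallins.

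The special medium library held 16900472 rounded estimated counts and the KSFM library 21604652. Ratios divide special medium by KSFM on CPM, counts scaled to library size, and each ratio carries in parentheses its exact 95% interval, which reflects counting error alone. Calls, higher or lower, required 1 CPM in at least 1 library, a difference of 2-fold or more and an interval without equality. Levels of different genes are compared on deposited TPM, which adjusts for transcript length. In bulk RNA, fewer cells of a type and less RNA per cell cannot be told apart. The corneal keratin KRT3 had 1 count in the special medium and 0 in KSFM, and KRT12 had 0 in both, while the epithelial genes EPCAM (449 and 301 TPM) and CDH1 (176 and 197 TPM) were abundant. Of the 10 epithelial markers listed 2 were called higher, KRT19 at 3.43-fold (729 TPM in the special medium, 186 TPM in KSFM) and KRT15 at 3.40-fold. KRT5 had a ratio of 0.660, PAX6 had 73 counts in the special medium and 69 in KSFM, KRT14 had 10 and 4, and TP63 had 13 and 5. Of the corneal crystallin enzymes, ALDH3A1 had 14 counts in the special medium and 5 in KSFM, and ALDH1A1 had 3 and 0. The corneal keratins and the aldehyde crystallins were therefore at or near 0 in both libraries, while the crystallin enzyme TKT stood at 608 TPM in the special medium against 186 TPM in KSFM and was called higher. Of other cell types, 1 of 7 fibroblast markers, 1 of 4 endothelial, 2 of 4 immune, 2 of 4 melanocyte and 0 of 3 goblet markers reached 1 CPM. Among these CDH5 was called higher, with 236 counts in the special medium and 3 in KSFM. LYZ was called lower, with 11 and 48. The other endothelial markers were below 1 CPM, PECAM1 with 15 and 2 counts, KDR with 10 and 10 and VWF with 2 and 6. The summed endothelial level was 7.74 and 0.30 TPM, of which CDH5 gave 7.09 and 0.06 TPM. The part of other cell types in the results was not tested.

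Promoter windows of 4 AHR pathway members are shown because AHRR and UGT1A6 were higher in the special medium while TIPARP and CYP1A1 did not pass the rule. Each spans the RefSeq gene start and lies mostly upstream of it (GRCh38.p14), 5′ to 3′ on the gene's strand, and capitals mark the core of the AHR–ARNT element, GCGTG, or its complement on the other strand. The windows are chr5:321464-321763 on the plus strand for AHRR, chr3:156674340-156674639 on the plus strand for TIPARP, chr15:74725479-74725778 on the minus strand for CYP1A1 and chr2:233691452-233691751 on the plus strand for UGT1A6.
AHRR: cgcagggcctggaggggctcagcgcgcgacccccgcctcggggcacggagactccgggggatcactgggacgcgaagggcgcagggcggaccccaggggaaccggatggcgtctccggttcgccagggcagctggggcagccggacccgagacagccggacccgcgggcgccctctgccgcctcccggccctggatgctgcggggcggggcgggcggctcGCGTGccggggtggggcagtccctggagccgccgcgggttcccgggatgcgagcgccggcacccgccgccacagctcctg
TIPARP: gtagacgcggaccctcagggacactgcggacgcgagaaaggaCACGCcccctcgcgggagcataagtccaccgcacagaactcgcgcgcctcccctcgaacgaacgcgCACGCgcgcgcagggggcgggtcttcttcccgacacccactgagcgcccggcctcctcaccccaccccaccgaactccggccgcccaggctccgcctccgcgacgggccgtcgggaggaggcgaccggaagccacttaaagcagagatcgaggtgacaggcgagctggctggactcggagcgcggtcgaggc
CYP1A1: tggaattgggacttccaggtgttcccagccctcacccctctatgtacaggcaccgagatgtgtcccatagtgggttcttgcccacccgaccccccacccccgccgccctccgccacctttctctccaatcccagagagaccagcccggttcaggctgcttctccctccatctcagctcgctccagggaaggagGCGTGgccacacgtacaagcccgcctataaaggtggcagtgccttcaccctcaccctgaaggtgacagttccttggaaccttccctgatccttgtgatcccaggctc
UGT1A6: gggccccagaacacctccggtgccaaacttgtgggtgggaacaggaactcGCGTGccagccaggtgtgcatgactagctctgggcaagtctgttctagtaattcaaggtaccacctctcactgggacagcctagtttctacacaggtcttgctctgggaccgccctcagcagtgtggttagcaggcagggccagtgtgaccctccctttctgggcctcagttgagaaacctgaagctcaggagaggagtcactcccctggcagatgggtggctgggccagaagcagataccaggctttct
The AHRR, CYP1A1 and UGT1A6 windows held 1 such core each and the TIPARP window 2. The core is common, since 36.3% of 27305 windows of the same length held it on either strand. Windows were found for 114 of the 153 members, and 37 of these held the core; among the members called higher it was 4 of 15 with a window. The antioxidant element TGACNNNGC, searched likewise, was in 15 of the 114 member windows and in 13.6% of all windows. Letters in a window do not show that a factor binds there.

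Of the 153 members, 69 reached 1 CPM in either library, 38 had 0 counts in both, and the others were detected below that level. In the special medium 21 members were called higher (30.4% of the 69, against 9.86% of all genes at that level) and 6 were called lower (8.70%, against 6.77%), with 42 neither. The median log2 ratio of the 69 was 0.17, against 0.00 over all 13632 genes at that level. The filter admits genes through the library where they are high, and 11 of the 21 had less than 1 CPM in KSFM. Of the 55 members at 1 CPM or more in both libraries, 10 were called higher and 4 lower, shares of 18.2% and 7.27%, beside 7.77% and 5.19% of all genes that met the same condition. Higher members made up 77.8% of those called on counts, against 59.3% for all genes. On TPM with a pseudocount of 1 the share was 90%, with 18 higher and 2 lower, against 78.4% for all genes. On that TPM scale 9.29% of all genes were higher and 2.56% lower, and the median of all genes was shifted by 0.15 (log2). The members closest to the 2-fold line were CYP20A1 (log2 ratio −1.02) and AKR1C1 (1.07) just inside it, and AKR7A3 (−0.97), AKR1A1 and ALDH2 (both −0.95) just outside.

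**Figure D1:**
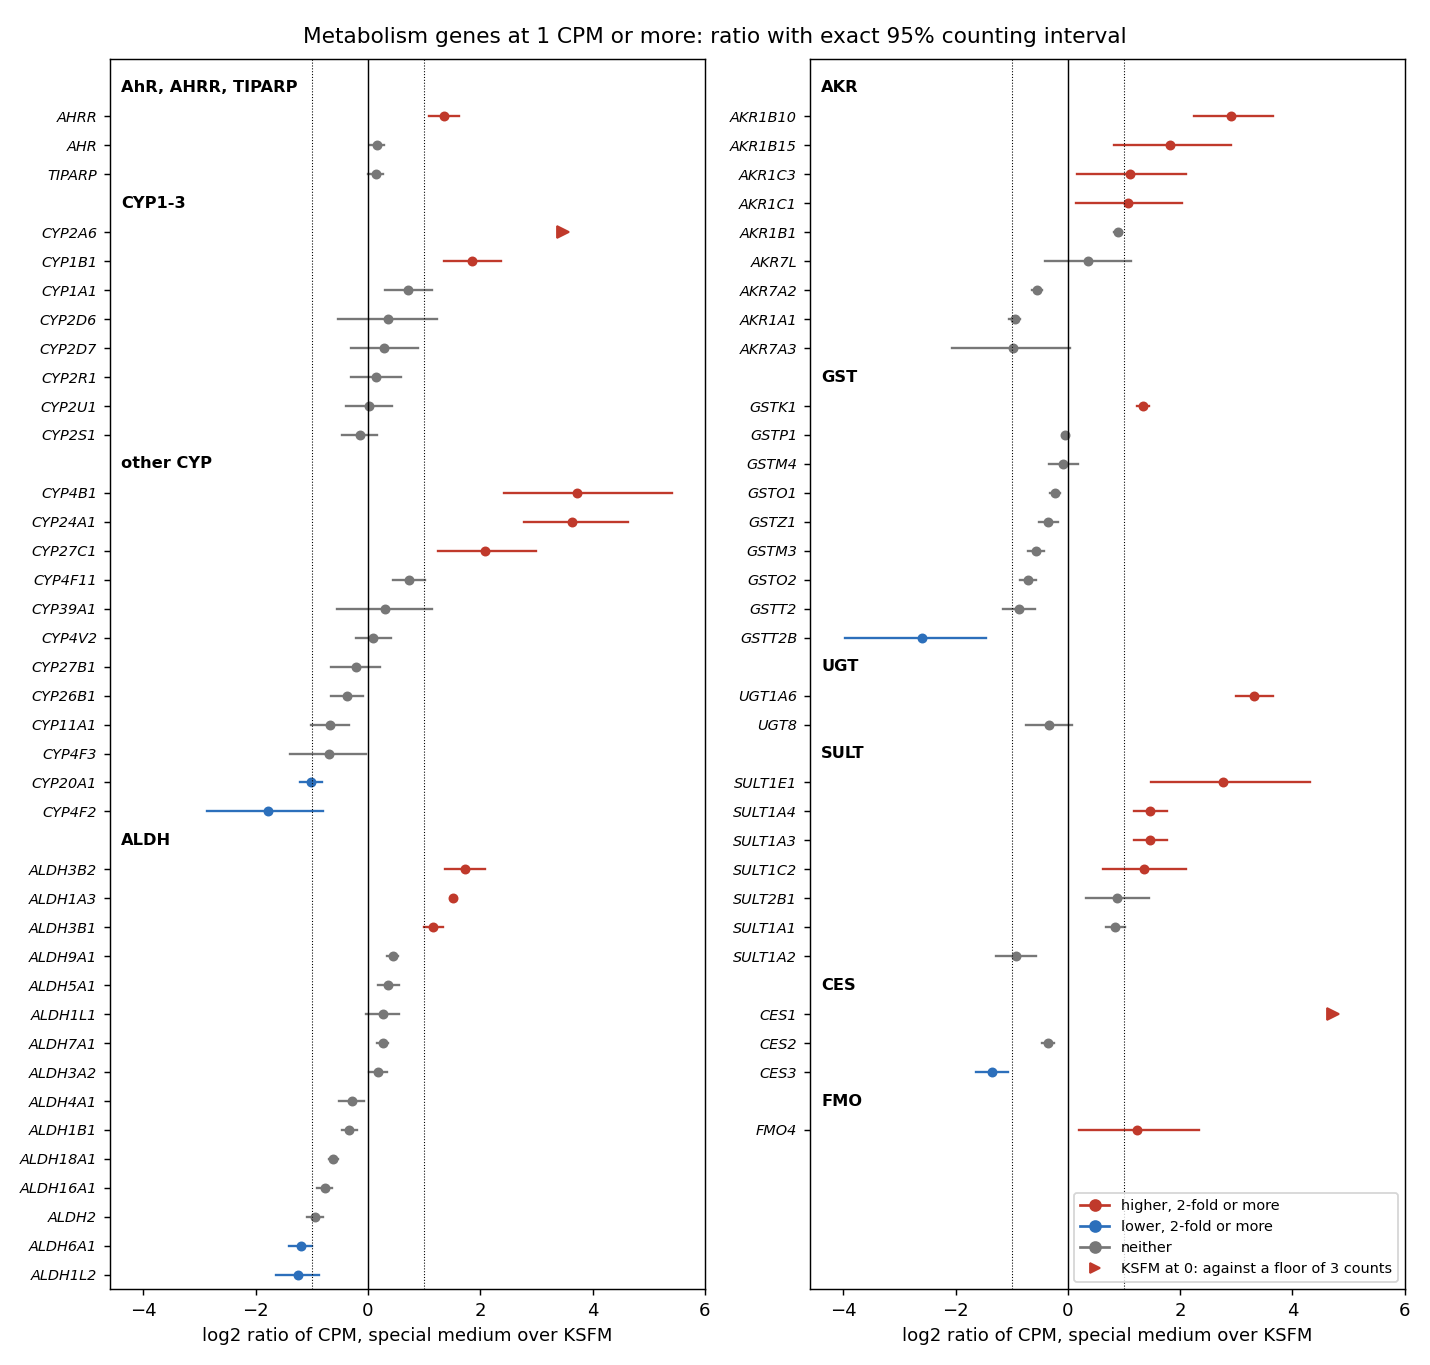
Log2 ratio of CPM, special medium over KSFM (x axis), for the 69 members at 1 CPM or more in either library, by family. Points are ratios from 1 library per medium, bars exact 95% counting intervals, triangles genes with 0 counts in KSFM set against a floor of 3 counts, and dotted lines 2-fold; 21 members called higher lie to the right, from AKR1C1 at 1.07 to CES1 at 4.72, and 6 called lower lie to the left.

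The receptor itself was close to level. AHR stood at 20.1 TPM in the special medium, against 16.2 TPM in KSFM, with 1020 counts in the special medium and 1167 in KSFM, a 1.11-fold ratio (1.02 to 1.21). TIPARP, a mono-ADP-ribosyltransferase that dampens AHR, stood at 27.9 TPM in the special medium and 22.5 TPM in KSFM, a 1.10-fold ratio (1.00 to 1.21). AHRR, the repressor that competes with AHR for ARNT, was 2.56-fold higher (2.13 to 3.09), at 7.68 TPM in the special medium against 2.69 TPM in KSFM. The promoter printed above for AHRR thus belongs to the only one of the 3 that passed the rule.

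Among the CYP1 enzymes, which oxidise polycyclic hydrocarbons and are the classical AHR readout, CYP1B1 was 3.61-fold higher (2.57 to 5.15), on 133 counts in the special medium and 47 in KSFM. Its level was low in both media, 3.19 TPM in the special medium against 0.79 TPM in KSFM. CYP1A1 had 115 counts in the special medium and 89 in KSFM, a 1.65-fold ratio (1.24 to 2.20) whose interval excludes equality without reaching 2-fold. CYP1A2, the form typical of liver, had 1 count in the special medium and 3 in KSFM. Exons of CYP1B1 overlap CYP1B1-AS1 and RMDN2 on the other strand in GENCODE release 29, and the labels do not state whether counting used the strand.

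UGT1A6, which glucuronidates planar phenols and is known as an AHR target, had the largest ratio among members with more than 50 counts in each library. Its ratio was 9.96-fold (7.98 to 12.6), at 49.9 TPM in the special medium against 4.55 TPM in KSFM, with 695 counts in the special medium and 89 in KSFM. The UGT1A genes have their own first exons and share the remaining ones, and 58.7% of the 75-base windows of the UGT1A6 transcript also lie in transcripts of other genes, mainly UGT1A3 and UGT1A4. Summed over all UGT1A symbols, the ratio was 10.1-fold (8.07 to 12.7), with 703 counts in the special medium and 89 in KSFM, close to that of UGT1A6 alone. Of the other UGT members UGT8, which makes galactosylceramide, was the only one at 1 CPM or more, at 3.67 TPM in the special medium and 4.09 TPM in KSFM. UGT1A6 lies on chromosome 2 from 233691607 to 233773300 (GRCh38, GENCODE release 29), and its exons overlap AC114812.1 and AC114812.2 on the other strand.

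Among genes outside the family names, 8 known AHR targets were listed as NQO1, SERPINB2, IL1B, EREG, NFE2L2, SLC7A5, NEDD9 and STC2. Of these, 6 were called higher and 0 lower (all genes, 9.86% and 6.77%). The list was drawn up with earlier results of these data known, and IL1B, EREG and SERPINB2 also answer to other signals. The quinone reductase NQO1 was 2.89-fold higher (2.73 to 3.05), at 211 TPM in the special medium against 64.8 TPM in KSFM. The scaffold gene NEDD9 was 3.92-fold higher (3.31 to 4.66), SERPINB2 8.21-fold, IL1B 6.92-fold, EREG 2.85-fold and STC2 2.27-fold. ARNT, the DNA-binding partner of AHR, stood at 18.6 TPM in the special medium and 29.4 TPM in KSFM, a ratio of 0.568 that did not reach the 2-fold line. The chaperone HSP90AA1, which holds AHR in the cytosol, was the 1 of 6 partner and chaperone genes called higher, at 2.54-fold (2.48 to 2.61).

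Aldehyde dehydrogenases were dominated by a single gene. ALDH1A3, which oxidises retinaldehyde to retinoic acid, stood at 1256 TPM in the special medium against 389.7 TPM in KSFM, with 36188 counts in the special medium and 16056 in KSFM. It was 2.87-fold higher (2.82 to 2.93), was the most abundant member in the special medium and ranked second to GSTP1 in KSFM. It carried 76.3% of the summed ALDH level in the special medium and 50.6% in KSFM. The other 18 ALDH genes together summed to 389 TPM in the special medium and 381 TPM in KSFM, so the summed ALDH level of 1645 against 771 TPM differed through ALDH1A3. ALDH1A3 lies on chromosome 15 from 100877714 to 100916626, and no 75-base window of its transcript is shared with another gene, though its exons overlap AC015712.2 on the other strand.

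The other retinaldehyde dehydrogenases had few counts, with ALDH1A2 at 1 in the special medium and 0 in KSFM, and ALDH8A1 at 5 and 19. Of the CYP26 enzymes that degrade retinoic acid, CYP26B1 alone was measured, at 4.82 TPM in the special medium and 5.29 TPM in KSFM (0.773-fold, 0.635 to 0.940). CYP26A1 had 1 count in the special medium and 0 in KSFM, and CYP26C1 had 0 in both. CYP27C1, which desaturates retinol at a ring position, was 4.22-fold higher (2.38 to 7.92), with 53 counts in the special medium and 16 in KSFM, and a log2 ratio of 0.88 on TPM with a pseudocount of 1. Beside these, the retinaldehyde reductase DHRS3 was 7.88-fold higher, at 229 TPM in the special medium against 25.6 TPM in KSFM, and the retinol dehydrogenase DHRS9 had 34 counts in the special medium and 1 in KSFM (43.4-fold, 7.27 to 1762). DHRS4, another retinaldehyde reductase, stood at 37.6 TPM in the special medium and 39.2 TPM in KSFM, a ratio of 0.819 (0.711 to 0.942) without a call. These were named after their values were seen. The retinoid receptors RARG and RXRA were 3.47-fold and 2.09-fold higher.

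Among the ALDHs of general detoxification, the paired genes ALDH3B1 and ALDH3B2, which act on lipid-derived aldehydes at membranes, were 2.24-fold (1.995 to 2.52) and 3.30-fold (2.60 to 4.22) higher. ALDH3B1 stood at 35.5 TPM in the special medium against 13.9 TPM in KSFM, and ALDH3B2 at 12.1 against 3.41 TPM. ALDH2, the mitochondrial acetaldehyde enzyme, stood at 34.0 TPM in the special medium and 57.8 TPM in KSFM, a ratio of 0.519 (0.469 to 0.574). ALDH3A2, which clears fatty aldehydes, had a ratio of 1.13 (1.01 to 1.26), and the mitochondrial ALDH1B1 one of 0.793 (0.723 to 0.869).

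The 9 ALDHs of amino acid, folate and other intermediary metabolism were all measured, with 0 called higher and 2 lower (all genes, 9.86% and 6.77%). The valine and thymine catabolic enzyme ALDH6A1 was 2.29-fold lower (1.999 to 2.64), at 7.37 TPM in the special medium against 15.1 TPM in KSFM. The mitochondrial folate enzyme ALDH1L2 was 2.38-fold lower (1.84 to 3.11), at 1.29 against 2.75 TPM. ALDH18A1, of proline synthesis, stood at 61.0 TPM in the special medium and 83.4 TPM in KSFM, and ALDH9A1, of carnitine and GABA synthesis, at 89.3 and 58.3 TPM. The summed level of the 9 was 254 TPM in the special medium and 253 TPM in KSFM, sums that carry the shift of all genes on TPM. Their counts, not scaled to library size, summed to 7013 and 10203. Exons of ALDH6A1 and ALDH1L2 overlap BBOF1 and C12orf45 on the other strand, and on TPM with a pseudocount of 1 neither passed the rule (log2 ratios of −0.95 and −0.71, with all genes shifted by 0.15). With that shift taken off ALDH6A1 passed, at −1.10, and ALDH1L2 did not, at −0.86, and with a pseudocount of 0.1 both passed.

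**Figure D2:**
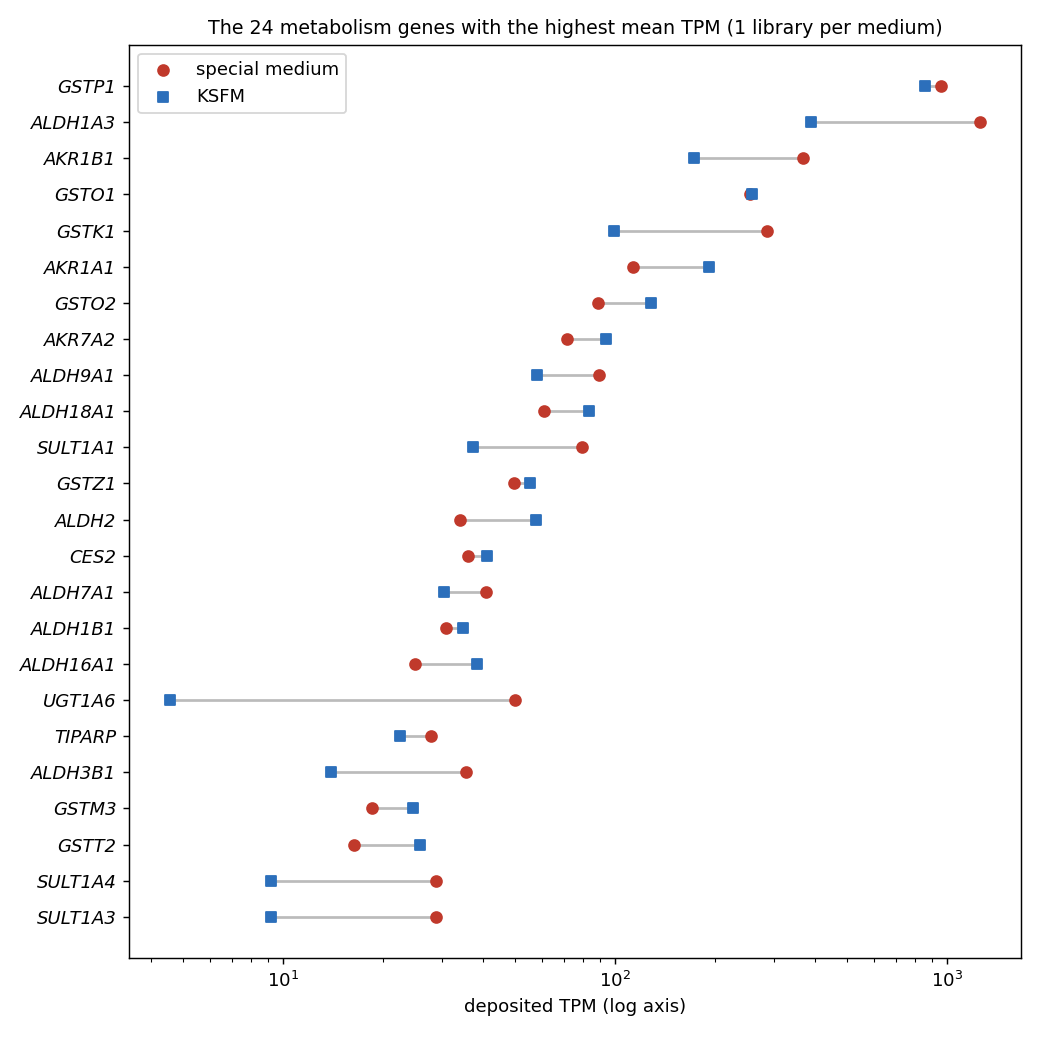
Deposited TPM (x axis, log) of the 24 members with the highest mean level, with circles for the special medium and squares for KSFM, 1 library each. ALDH1A3 moves ahead of GSTP1 in the special medium, and UGT1A6 spans the widest gap, 49.9 against 4.55 TPM.

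Of 9 aldo-keto reductases measured, 4 were called higher and 0 lower (all genes, 9.86% and 6.77%), or 1 higher on TPM with a pseudocount of 1 and the shift of all genes taken off. AKR1B1, the aldose reductase that makes sorbitol from glucose, stood at 368 TPM in the special medium against 173 TPM in KSFM. Its ratio of 1.86 (1.77 to 1.96) on counts stays below the 2-fold line, while the deposited TPM put it above that line, at a log2 ratio of 1.09 with a pseudocount of 1, and below it again, at 0.94, once the shift of all genes was taken off. AKR1A1, the general aldehyde reductase, stood at 113 TPM in the special medium and 192 TPM in KSFM, a ratio of 0.519 (0.485 to 0.554) that did not pass the rule. The order of the pair thus turned, with AKR1B1 above AKR1A1 in the special medium and below it in KSFM.

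AKR1B10, a retinaldehyde and lipid aldehyde reductase under NRF2 control, was 7.53-fold higher (4.72 to 12.6), at 10.2 TPM in the special medium against 1.19 TPM in KSFM. Its neighbour AKR1B15 had 33 counts in the special medium against 12 in KSFM, 3.51-fold higher (1.77 to 7.46). Of the AKR1B10 windows, 7.45% occur in other genes. With their counts added the ratio was 6.07-fold (4.15 to 9.12). The steroid reductases AKR1C1 and AKR1C3 were 2.10-fold (1.11 to 4.09) and 2.15-fold (1.12 to 4.28) higher, on 28 and 27 counts in the special medium and 17 and 16 in KSFM. These calls rest on few counts, and on TPM with a pseudocount of 1 their log2 ratios were 0.83 and 0.86. Of the AKR1C1 windows, 22.2% occur in other genes, mainly AKR1C2 and AKR1C3. AKR1C2 had 11 counts in the special medium and 5 in KSFM, and the 3 copies together gave 2.22-fold (1.46 to 3.39). Of the aflatoxin aldehyde reductases, AKR7A2 stood at 71.7 TPM in the special medium and 93.7 TPM in KSFM, and none of the 3 AKR7 genes passed the rule.

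Glutathione transferases were the most abundant family, at a summed 1698 TPM in the special medium and 1471 TPM in KSFM. Their counts, not scaled to library size, summed to 12828 and 16610, and the TPM sums carry the shift of all genes. GSTP1, the pi-class enzyme of most epithelia, was the most abundant of them. It stood at 958 TPM in the special medium and 855 TPM in KSFM, a count ratio of 0.965 (0.935 to 0.997). GSTO1, an omega-class thioltransferase, stood at 255 TPM in the special medium and 258 TPM in KSFM, a count ratio of 0.854 (0.805 to 0.906). GSTK1, the mitochondrial and peroxisomal kappa-class enzyme, was the only GST called higher, at 2.53-fold (2.35 to 2.72), with 287 TPM in the special medium against 98.9 TPM in KSFM.

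GSTT2B, a theta-class gene, had 7 counts in the special medium against 54 in KSFM, 6.05-fold lower (2.74 to 15.8). It is a near copy of GSTT2, with 85.4% of its 75-base windows shared, and GSTT2 stood at 16.3 TPM in the special medium and 25.9 TPM in KSFM. With the counts of both added, the ratio was 2.01-fold lower (1.67 to 2.44). Most of these counts came from GSTT2, with 149 in the special medium and 346 in KSFM. How reads were divided between the 2 copies was not tested. GSTM1 and GSTT1 had 0 counts in both libraries. For GSTM1, counting error alone allows up to 0.177 CPM in the special medium and 0.139 CPM in KSFM. GSTT1 had no position among the gene bounds used here, and whether reads could be assigned to it was not tested, so its 0 counts set no such limit. Of the enzymes that supply glutathione, glutathione reductase GSR was 2.03-fold higher (1.89 to 2.18), while GCLC had a ratio of 1.08, GSS of 0.974 and GCLM of 1.496 without a call. The microsomal transferase MGST1, which is not a member, was 2.18-fold higher (2.02 to 2.34), at 302 TPM in the special medium against 119 TPM in KSFM.

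Sulfotransferases had 4 of 7 measured genes called higher and 0 lower (all genes, 9.86% and 6.77%), or 3 higher with the identical SULT1A3 and SULT1A4 counted once. SULT1A3 and SULT1A4, which sulfate dopamine and other catechols, hold identical values in both libraries, 28.9 TPM each in the special medium against 9.18 TPM each in KSFM. They are duplicate genes on chromosome 16 with 97.7% and 98.3% of windows shared, and as 1 locus they were 2.75-fold higher (2.38 to 3.18). SULT1A1, the general phenol sulfotransferase, stood at 79.6 TPM in the special medium against 37.4 TPM in KSFM (1.80-fold on counts, 1.61 to 2.01, and a log2 ratio of 1.07 on TPM with a pseudocount of 1, or 0.92 with the shift of all genes taken off). SULT1A2 ran the other way, at 10.7 TPM in the special medium and 18.6 TPM in KSFM. The 4 SULT1A genes together gave 1.78-fold (1.64 to 1.93).

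SULT1E1, the estrogen sulfotransferase, had 32 counts in the special medium against 6 in KSFM, 6.80-fold higher (2.81 to 19.9). Of the SULT1E1 windows, 21.0% occur in AC108941.2. SULT1C2 had 50 against 25, 2.55-fold higher (1.55 to 4.30), with a log2 ratio of 0.86 on TPM with a pseudocount of 1. SULT2B1, which sulfates cholesterol in stratified epithelium, had 69 counts in the special medium and 48 in KSFM, a 1.83-fold ratio (1.25 to 2.71). Of the enzymes that make the sulfate donor, PAPSS2 had a ratio of 1.85 (1.59 to 2.14) and PAPSS1 of 0.904, and neither passed the rule. UGDH, which makes the donor for UGT enzymes, was at 29.9 TPM in the special medium and 26.2 TPM in KSFM, beside the UGT1A6 ratio of 9.96-fold.

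**Figure D3:**
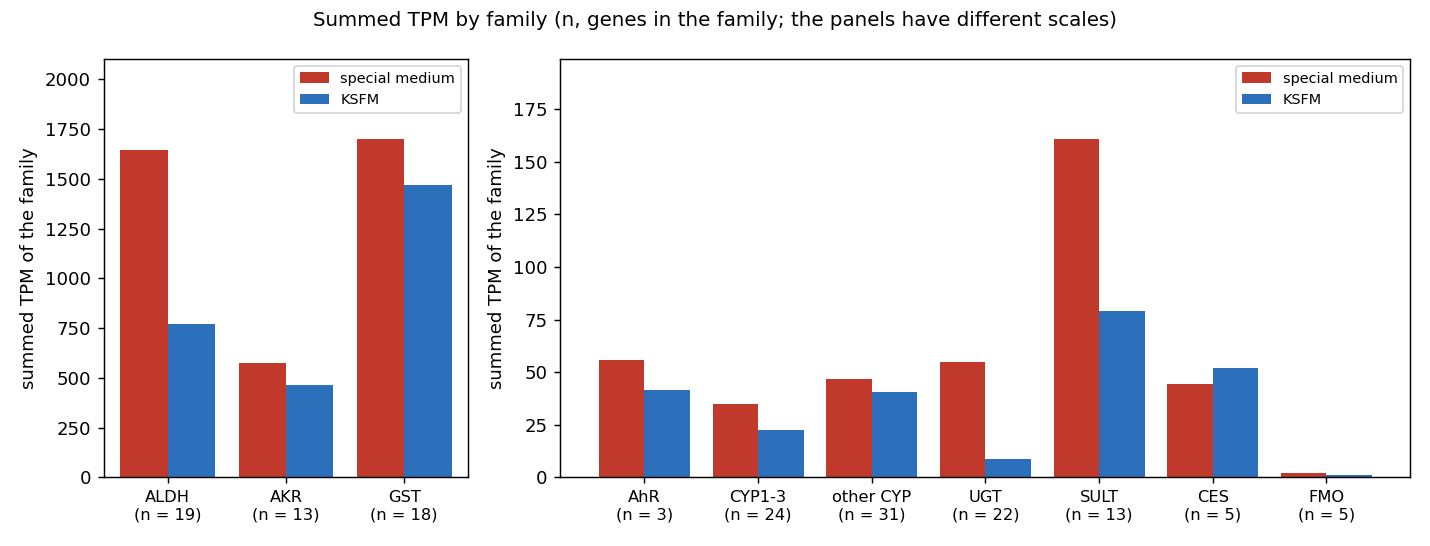
Summed deposited TPM of each family (y axis, linear from 0) in the special medium (left bar) and KSFM (right bar), with the larger families in their own panel. ALDH reaches 1645 against 771 TPM, UGT 55.0 against 8.82 TPM and SULT 161 against 79.1 TPM. The sums are not centred, and on TPM with a pseudocount of 1 the median of all genes was 0.15 (log2) higher in the special medium.

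The other P450 genes were scarce, and all 55 CYP members together summed to 81.7 TPM in the special medium and 63.2 TPM in KSFM. Their counts, not scaled to library size, summed to 2053 and 2550. The TPM sums carry the shift of all genes on that scale. CYP24A1, the vitamin D 24-hydroxylase and a direct vitamin D receptor target, was 12.4-fold higher (6.86 to 24.8), at 4.55 TPM in the special medium against 0.32 TPM in KSFM, with 117 counts in the special medium and 12 in KSFM. CYP27B1, which activates vitamin D, stood at 3.94 TPM in the special medium and 4.06 TPM in KSFM, and CYP2R1, the 25-hydroxylase, at 6.57 and 5.26 TPM. The receptor VDR stood at 30.4 TPM in the special medium against 16.0 TPM in KSFM, a 1.70-fold ratio (1.56 to 1.86). Within the vitamin D set, the degrading enzyme was called higher and the activating enzymes were not.

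CYP4B1, a fatty acid hydroxylase described in rabbit corneal epithelium, had 52 counts in the special medium against 5 in KSFM, 13.3-fold higher (5.33 to 42.6). CYP4F2, which hydroxylates leukotriene B4 and vitamin K, had 11 counts in the special medium against 48 in KSFM, 3.42-fold lower (1.75 to 7.31), while its neighbour CYP4F11 had 237 counts in the special medium and 182 in KSFM (1.66-fold, 1.36 to 2.03). Of the CYP4F2 windows, 9.13% occur in CYP4F3, and no CYP4F11 window is shared with another gene. CYP4F3 had 29 counts in the special medium and 60 in KSFM, a ratio of 0.616 (0.381 to 0.976) without a call. Added together, CYP4F2, CYP4F3 and CYP4F11 gave a ratio of 1.22 (1.03 to 1.44), on 277 counts in the special medium and 290 in KSFM. Most of these counts came from CYP4F11, so the sum does not address reads divided between CYP4F2 and CYP4F3. On TPM with a pseudocount of 1, CYP4F2 had a log2 ratio of −0.82. CYP20A1, an enzyme without a known substrate, was 2.02-fold lower (1.76 to 2.33), at 3.14 TPM in the special medium against 5.71 TPM in KSFM, and missed the 2-fold line on TPM with either pseudocount (log2 −0.70 and −0.84). CYP2S1, the most abundant member of CYP families 1 to 3, stood at 7.21 TPM in the special medium and 7.08 TPM in KSFM. The 14 listed electron donors and haem enzymes of P450s were all measured and 0 were called higher or lower (all genes, 9.86% and 6.77%). POR, the common reductase, stood at 56.2 TPM in the special medium and 35.9 TPM in KSFM (1.39-fold, 1.28 to 1.52).

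Among carboxylesterases, CES2 was the main gene, at 36.1 TPM in the special medium and 41.2 TPM in KSFM. CES3 was 2.54-fold lower (2.09 to 3.11), at 4.41 TPM in the special medium against 10.3 TPM in KSFM. CES1, the liver-type esterase, had 62 counts in the special medium and 0 in KSFM. It was at least 20.8-fold higher by its exact 95% bound, and 26.4-fold when KSFM is set to a floor of 3 counts per library. Of the CES1 windows, 25% occur in other genes, mainly CES1P1 and CES1P2. FMO4, the only flavin monooxygenase at 1 CPM, had 24 counts in the special medium against 13 in KSFM, 2.35-fold higher (1.15 to 5.04), and its log2 ratio on TPM with a pseudocount of 1 was 0.64.

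**Figure D4:**
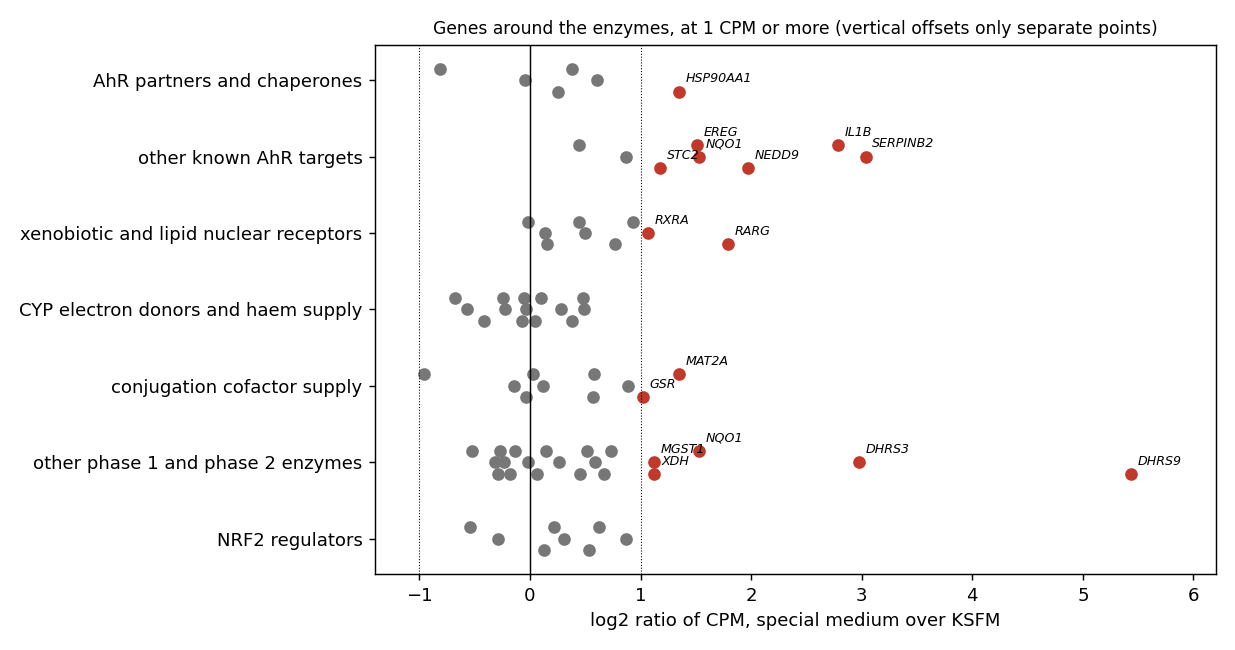
Log2 ratio of CPM, special medium over KSFM (x axis), for genes that supply, pair with or regulate the enzymes, at 1 CPM or more and by list; red marks those called higher, grey those that were neither. AHR targets reach 6 of 8 called, and the electron donors and NRF2 regulators 0 of 14 and 0 of 8. Over all genes 9.86% were called higher and 6.77% lower. The AHR target list was drawn up with earlier results of these data known.

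Detection was lopsided at the low end. Of the 153 members, 23 had counts in the special medium and 0 in KSFM, and 2 had the reverse, although the KSFM library is the deeper one. Over all genes the same comparison gave 927 and 1040. The 23 hold 145 counts in all, led by CES1 with 62, CYP2A6 with 26 and GSTA1 with 14, and 18 of them have 4 or fewer. CYP2A6, the nicotine oxidase of liver, lay at least 8.37-fold higher by its exact bound and 11.1-fold on the same floor, and it shares 23.8% of its windows with other genes. The low-count members also include CYP3A4, CYP3A7, CYP2C8, UGT2B7, UGT2B10 and SULT2A1, which are known for their expression in liver or adrenal.

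Hepatocyte markers were set beside these members. The members were picked for 0 counts in KSFM, so their direction was set by that choice. All 8 markers listed were detected in the special medium, and 5 of them had 0 counts in KSFM. ALB had 222 counts in the special medium and 18 in KSFM, APOA1 110 and 0, APOA2 82 and 0, TTR 42 and 0, AHSG 24 and 0, APOB 16 and 0 and FGB 16 and 1. SERPINA1 had 550 and 612, a ratio of 1.15 (1.02 to 1.29) on CPM, without a call. The summed level of the 8 markers was 89.5 TPM in the special medium and 17.4 TPM in KSFM. The part of liver-type RNA in the members at 0 counts in KSFM was not tested. Of the liver-enriched regulators, HNF4A stood at 9 counts in the special medium and 5 in KSFM, NR1I2 at 0 and 2, and NR1I3 at 0 in both. Without the members at 0 in KSFM, of which CES1 and CYP2A6 had been called, 19 members were called higher and 6 lower. The same exclusion was not applied to all genes, whose shares without it were 9.86% and 6.77%. The part of liver-type RNA in the remaining calls was not tested.

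**Figure D5:**
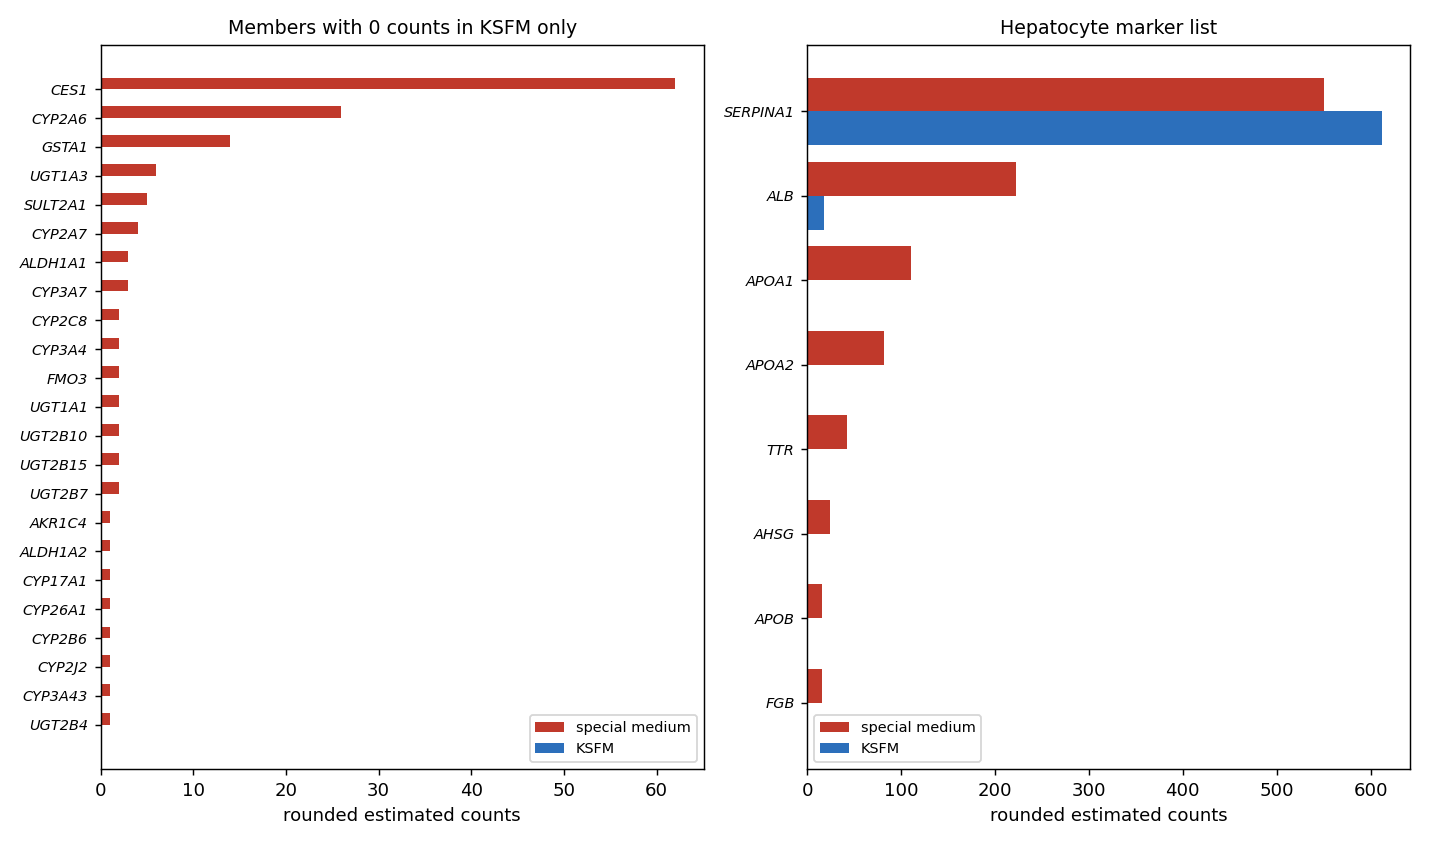
Rounded estimated counts (x axis) in the special medium (upper bar) and KSFM (lower bar) for the 23 members with 0 counts in KSFM only (left) and for the 8 hepatocyte markers (right). CES1 leads the members with 62 counts. Counts are not scaled to library size, and SERPINA1, with 550 in the special medium against 612 in KSFM, had a ratio of 1.15 on CPM.

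Regulators of NRF2, the transcription factor that drives AKR1B10, NQO1 and several conjugating enzymes, gave 0 calls in 8 genes. NFE2L2, which encodes NRF2, stood at 150 TPM in the special medium against 73.7 TPM in KSFM, a count ratio of 1.83 (1.73 to 1.92), and its inhibitor KEAP1 at 50.5 against 31.0 TPM, a ratio of 1.45 (1.32 to 1.59). On TPM with a pseudocount of 1, 1 of the 8 passed. Among 21 measured enzymes of other detoxification families 5 were called higher and 0 lower, namely DHRS9, DHRS3, NQO1, MGST1 and the xanthine oxidase gene XDH at 2.18-fold. Cofactor supply had 2 of 10 called higher, GSR and, at 2.54-fold, the S-adenosylmethionine synthase gene MAT2A, and the nuclear receptors had 2 of 9, RARG and RXRA. Of 82 genes listed outside the members, 74 were measured, 15 were called higher and 0 lower. For each of these lists, the shares over all genes were 9.86% higher and 6.77% lower.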

How the data were processed

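Poly(A) libraries, 1 per medium from RNA of 3 pooled cultures, were made with a stranded kit, per the labels' protocols. Per the submitters' processing notes, the tools were HISAT2 2.1.0, RSEM, fastp 0.20.0 and FastQC 0.11.9, on build GRCh38; neither annotation release nor strand setting is stated. The authors deposited estimated counts and TPM for 26506 genes.

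Estimated counts were rounded and library sizes scaled by edgeR 4.0.16 TMM factors (1.00 for the special medium and 0.999 for KSFM). Ratios carry exact 95% Clopper-Pearson intervals from a gene's share of its 2 counts. PCR reads are not independent molecules, so intervals and the floor of 3 counts describe only counting error. An interval spans 0.41 (log2) to either side at 100 counts per library and 1.42 at 10 counts. The calculation was tested on simulated data. There is no test between media.

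Members, lists and the call rule were chosen with earlier results of these data known. Genes named are AHR, AHRR, TIPARP and the CYP1 genes, every member called, the 2 most expressed members per family, and up to 6 called genes per outside list; others were chosen after their values were seen. Shared 75-base windows and gene bounds come from GENCODE release 29 (longest coding transcript, readthrough loci left out), promoters from RefSeq (GRCh38.p14). Alternatives used DESeq2 1.42.0 size factors, total count and upper quartile scaling, TPM, other filters and stricter rules. Tools were R 4.3.3, Python 3.11.15, scipy 1.17.1 and matplotlib 3.10.9.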

Additional observations from a re-analysis of the deposited data

How the results depend on the processing

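Of the 27 members called, all kept their call under total count, DESeq2 and upper quartile scaling and without a filter, 26 with a filter on the mean CPM and 26 on TPM with a pseudocount of 0.1, 18 on TPM with a pseudocount of 1, 18 after centring those ratios, and no value changed sign in any of these. With a filter of 10 CPM, 8 of the 40 members left were called higher, and 788 among all genes, for which no share is given. Of the 69 members at 1 CPM, 8 were higher by a 4-fold rule and 15 with intervals wholly beyond 2-fold. Of all 13632 genes at that level, these rules gave 408 and 837. Members called lower numbered 2 and 5 on TPM with pseudocounts of 1 and 0.1, and 3 after centring the first. They numbered 4 at 10 CPM, 1 by the 4-fold rule and 2 with intervals wholly beyond 2-fold. All genes called lower numbered 349 and 605 on TPM with pseudocounts of 1 and 0.1, 536 after centring, 446 at 10 CPM, 162 at 4-fold and 395 with the strict interval. The members' median was −0.15 at 10 CPM, where 40 members were left; the cause was not tested. Without GSTP1, which had no call, the counts were 21 and 6. Without SULT1A4, called higher and chosen after seeing the data, they were 20 and 6. Both follow from the calls themselves and test nothing further. No paired analysis was possible because each medium has 1 library.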

Other observations

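Members below 1 CPM in both media, described after their values were seen, included some with intervals that exclude equality. CYP2E1, the ethanol-inducible P450, had 12 counts in the special medium and 2 in KSFM, a 7.65-fold ratio (1.70 to 70.4). ALDH3A1, the corneal crystallin, gave 3.57-fold (1.22 to 12.7) on 14 and 5 counts, and the orphan P450 CYP4X1 2.98-fold (1.07 to 9.45) on 14 and 6. ALDH8A1 ran the other way, at 5 counts in the special medium and 19 in KSFM, a ratio of 0.336 (0.0979 to 0.929). FMO5, with 16 and 13 counts, and CYP3A5, with 2 in each, gave no detectable difference at this depth.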
